A study of Mus musculus with 6 samples.

Results

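The members described here are the first exon bins, at the 5′ end, of 7872 genes of cultured mouse microglia. An exon bin is a stretch of exon that no annotated boundary divides further, and the deposited table counts reads in 425461 such bins of 48005 gene entries. A gene entered when its entry named no other gene, had at least 5 bins and held at least 5000 counts over its bins and the 6 libraries. Its first bin was the bin of at least 60 bases nearest the 5′ end in the direction of transcription. The members were thus chosen by bin length and by counts pooled over both groups. The readout was the share of a gene's counts that lay in that bin, compared between EV-treated and control cells.

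Both groups were cultured microglia of CD1 background, the immune cells of the brain, and each group had 3 libraries lettered A, B and C. The control group received the control treatment, which the labels do not describe further. The EV group received extracellular vesicles, membrane-bound particles released by cells, which had been collected by centrifugation from primary neural stem cells of CD1 mice, taken from the brain's subventricular zone. The labels do not give the dose, the time or the age of the mice, nor whether replicate letters stand for separate animals or culture dishes, and the p-values measure the spread between these libraries, which may be technical.

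RNA polymerase II starts a transcript at a promoter, and the first exon is the stretch that lies directly behind it. Many genes have several promoters, each with its own first exon spliced to a common body, and the choice between them can alter the 5′ untranslated region (UTR), the first amino acids or the control of the gene. Macrophages and microglia are known to change promoters at a number of immune genes when they are activated. In such a gene the counts of one first exon change against the rest of the transcript, and those of another may change the opposite way.

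The promoter sequences below belong to 4 genes whose first bins changed against the rest of the gene, and each is shown beside that of a downstream first exon of the same gene, since the values that follow turn on such pairs. They are the 250 bases before the RefSeq transcript start, from RefSeq on GRCm38.p6, written 5′ to 3′, and none of these 8 windows overlaps an exon of GENCODE vM21. Capitals mark matches, on either strand, to a TATA box (TATAAA), a hypoxia response core (ACGTG), an AP-1 site (TGANTCA), a PU.1 core (GAGGAA) or an NF-kB site (its usual degenerate consensus).
Mxi1 upstream first exon (chr19:53310256-53310505, plus strand): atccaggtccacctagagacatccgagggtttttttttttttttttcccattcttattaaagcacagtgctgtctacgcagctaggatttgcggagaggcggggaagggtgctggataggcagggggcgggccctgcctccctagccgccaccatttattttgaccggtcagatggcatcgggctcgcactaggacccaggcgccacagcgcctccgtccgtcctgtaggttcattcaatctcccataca
Mxi1 downstream first exon (chr19:53329163-53329412, plus strand): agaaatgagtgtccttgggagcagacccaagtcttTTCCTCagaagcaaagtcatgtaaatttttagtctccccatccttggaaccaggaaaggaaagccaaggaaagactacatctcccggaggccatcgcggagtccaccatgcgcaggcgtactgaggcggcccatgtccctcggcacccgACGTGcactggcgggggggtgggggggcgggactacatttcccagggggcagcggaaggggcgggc
Add3 upstream first exon (chr19:53140193-53140442, plus strand): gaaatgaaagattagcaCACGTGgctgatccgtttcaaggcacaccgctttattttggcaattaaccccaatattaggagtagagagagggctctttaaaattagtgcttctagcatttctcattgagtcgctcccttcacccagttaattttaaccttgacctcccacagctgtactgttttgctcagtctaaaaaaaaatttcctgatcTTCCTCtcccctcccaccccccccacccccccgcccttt
Add3 downstream first exon (chr19:53142506-53142755, plus strand): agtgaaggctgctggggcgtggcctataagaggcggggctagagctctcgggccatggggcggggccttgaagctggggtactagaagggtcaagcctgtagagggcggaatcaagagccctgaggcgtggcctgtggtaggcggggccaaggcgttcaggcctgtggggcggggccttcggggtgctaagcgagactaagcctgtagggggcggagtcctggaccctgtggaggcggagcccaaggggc
Pias3 upstream first exon (chr3:96696125-96696374, plus strand): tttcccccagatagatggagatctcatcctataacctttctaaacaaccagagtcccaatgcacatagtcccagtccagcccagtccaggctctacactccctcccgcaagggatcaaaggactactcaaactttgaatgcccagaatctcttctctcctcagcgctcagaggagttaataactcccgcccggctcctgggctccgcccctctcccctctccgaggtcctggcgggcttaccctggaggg
Pias3 downstream first exon (chr3:96696826-96697075, plus strand): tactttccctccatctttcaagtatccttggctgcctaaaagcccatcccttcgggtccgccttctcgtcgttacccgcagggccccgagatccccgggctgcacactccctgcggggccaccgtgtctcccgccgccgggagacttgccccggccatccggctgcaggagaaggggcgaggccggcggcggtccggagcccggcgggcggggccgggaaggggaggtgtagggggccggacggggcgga
Impdh1 upstream first exon (chr6:29216365-29216614, minus strand): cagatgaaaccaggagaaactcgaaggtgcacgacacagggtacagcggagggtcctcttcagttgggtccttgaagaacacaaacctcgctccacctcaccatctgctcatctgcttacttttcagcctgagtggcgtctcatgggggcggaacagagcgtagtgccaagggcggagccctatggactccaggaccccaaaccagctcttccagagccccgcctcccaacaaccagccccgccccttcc
Impdh1 downstream first exon (chr6:29212298-29212547, minus strand): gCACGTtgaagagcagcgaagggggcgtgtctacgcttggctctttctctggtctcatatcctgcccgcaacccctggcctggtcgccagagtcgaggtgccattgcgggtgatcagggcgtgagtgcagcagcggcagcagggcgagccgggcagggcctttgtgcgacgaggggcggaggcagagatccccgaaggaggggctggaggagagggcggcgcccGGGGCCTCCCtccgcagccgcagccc
Of all 32851 RefSeq windows of this length, 12.4% hold the TATA box, 16.6% the hypoxia response core, 6.75% the AP-1 site, 23.3% the PU.1 core and 5.0% the NF-kB site. The upstream windows of Mxi1, Pias3 and Impdh1 and the downstream windows of Add3 and Pias3 hold none of the 5 motifs. The downstream Mxi1 window holds a PU.1 core and a hypoxia response core, the upstream Add3 window holds both as well, and in Add3 the forward and reverse matches to the hypoxia core overlap in a single palindrome. The downstream Impdh1 window holds a hypoxia response core and an NF-kB site. The downstream window had more CG pairs than the upstream one in Add3 (13 against 5), Pias3 (26 against 7) and Impdh1 (21 against 10), and the same number in Mxi1 (13 each). A further RefSeq start in the downstream Mxi1 exon has a window with 42 CG pairs, not shown because it overlaps annotated exons.

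The libraries held between 109744701 and 162544804 counts over all bins. Microglial markers were abundant in both groups: 9 of 10 passed the filter on low counts, with a summed level of 4625 to 5987 CPM (counts relative to the scaled size of the library) in control and 2246 to 2487 CPM in EV-treated libraries. Of the astrocyte markers 5 of 9 passed, with a sum of 0.307 to 0.695 CPM in control and 86.1 to 123 CPM in EV-treated libraries. Slc1a2, a glutamate transporter, and Gja1, a gap junction protein, made up most of the EV value, while Gfap stayed at 0 to 0.102 CPM and Gjb6 was at 0 in every library. The summed oligodendrocyte lineage markers (5 of 10 passed) lay at 218 to 444 CPM in control and 32.7 to 44.6 CPM with EVs, mostly Cspg4, and the neural stem cell markers (4 of 7) at 46.5 to 82.9 and 5.88 to 7.82 CPM, mostly Nes. Neuronal markers (5 of 8) summed to 0.516 to 0.599 CPM in control and 2.13 to 2.64 CPM with EVs. Fibroblast or mural markers (5 of 7) summed to 14.5 to 37.5 and 12.9 to 19.5 CPM, and endothelial markers (4 of 5) to 77.1 to 174 and 43.3 to 48.3 CPM. Of the endothelial markers only Flt1 fell, from 71.1 to 170 CPM in control to 13.3 to 18.8 CPM with EVs. Kdr (4.17 to 5.70 and 21.3 to 31.0 CPM), Pecam1 (0.236 to 0.266 and 1.82 to 2.83 CPM) and Cdh5 (0.0709 to 0.180 and 1.44 to 2.51 CPM) were higher with EVs. The part of these differences in the first-bin results was not tested, and in such bulk samples fewer cells of a type and less RNA per cell cannot be told apart.

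First bins carried a small part of each gene's counts. The median share over the 7872 members was 2.22%, with quartiles of 0.347% and 5.39%, and 2826 members lay under 1% while 202 lay over 20%. Per base, the median first bin held 0.602 times the density of its whole gene. The median length was 154 bases, from 60 to 5125. In 4307 members the first bin was the gene's outermost bin, and in 3565 it followed shorter bins that held a median of 0.689% of the counts.

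The median first-bin share overlapped between the groups. It was 2.36%, 2.10% and 2.12% in control libraries A, B and C and 2.09%, 2.22% and 2.24% in EV-treated libraries A, B and C. The median difference in share was -0.00216 percentage points (EV minus control), and in 5029 members the 2 means lay within 0.5 points of each other. The share pooled over the counts of all members did not overlap. It was 3.25%, 3.12% and 2.88% in control libraries A, B and C and 3.39%, 3.65% and 3.43% with EVs. The median share of all bins up to the midpoint of the exonic length did not overlap either. It was 54.0%, 52.2% and 52.7% in control and 54.3%, 54.6% and 54.3% with EVs. The part of this shift in the first-bin calls was not tested.

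A subset of first bins moved against the rest of their genes. Usage change is the log2 fold change of the bin, EV against control, minus that of its gene, and it was tested for 6344 members with edgeR's quasi-likelihood test for bin usage and Benjamini-Hochberg adjustment over all 198361 bins tested. The other 1528 members did not pass the filter on low counts, and 315 of them were at 0 in every library. At an adjusted p under 0.05, 471 first bins were called, 226 with higher and 245 with lower usage in EV-treated microglia, which is 7.42% of the members tested. Of all bins tested 4.21% were called, with 1.72% higher and 2.49% lower, against 3.56% and 3.86% of the first bins. Among the other bins of at least 60 bases in the same genes the share called was 3.71% (1.32% higher and 2.39% lower), and among their last bins 13.4%, of which most were lower (11.0% against 2.45% higher). Without control library B, 145 first bins had higher and 191 lower usage.

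The groups' shares did not overlap in 2059 of the members tested (32.5%) and in 439 of the 471 called, beside 29.5% of all bins tested. The changes were often large: 330 of the called bins changed by at least 1 on the log2 scale, 47 rose by at least 2 and 82 fell by at least 2. The median usage change was -0.03 over the members tested and 0.02 over all bins, with a 5th percentile of -0.95 and a 95th of 0.84. In 67 of the called bins every library of one group held under 10 counts, so these bins passed the filter only through the other group. They had to differ in counts, which favours a difference in share but does not fix it where the gene itself changed. Among the genes named by rule or singled out after their values were seen, they are Add3, Sh2d3c, Ntpcr, Mbnl1, Ccnd1, Padi2, Lzts2, Atxn7l2, Per1, Tmcc3 and Fam19a2. The first-bin values of these genes are a description.

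**Figure D1:**
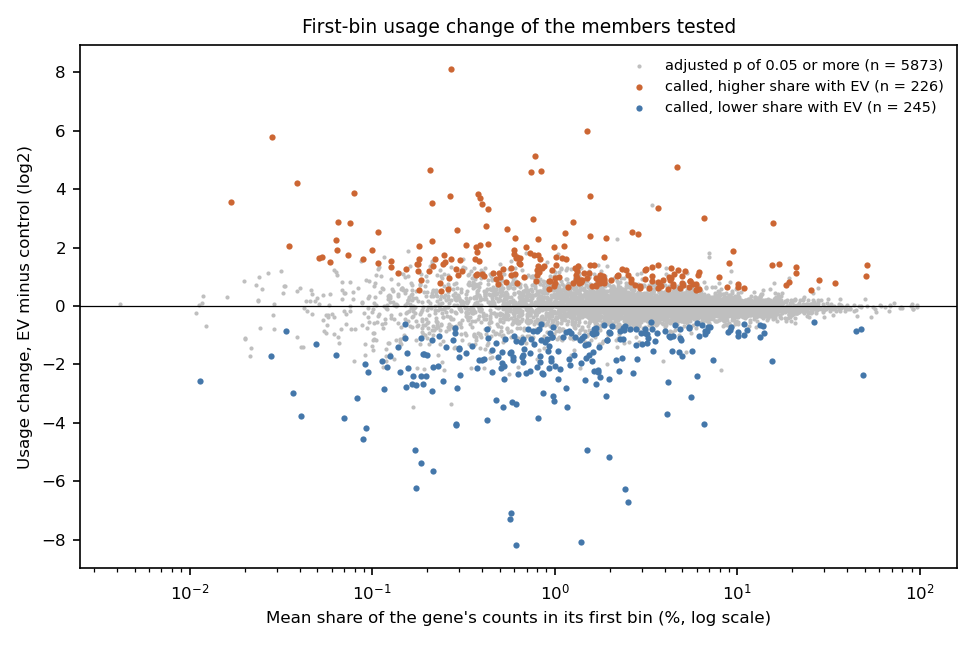
Usage change of the first bin (vertical axis, log2, EV minus control) against its mean share of the gene's counts (horizontal axis, percent, log scale), 1 point for each of the 6344 members tested. The 226 higher (orange) and 245 lower (blue) calls spread over the whole range of shares, while most members (grey, 5873) lie close to 0.

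Called first bins were more frequent where the annotation offers another start. GENCODE vM21 places an annotated transcript start inside 7057 of the 7872 first bins. Of the 5415 tested members with a further start downstream in the gene 438 were called (8.09%), against 33 of 929 without one (3.55%). Where the bin is the first exon of the principal transcript 331 of 5350 were called (6.19%), and where it is not, 140 of 994 (14.1%). First bins that hold coding sequence were called in 94 of 3096 cases (3.04%). These are counts without a test.

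The gene's own direction did not fix that of its first bin. Of 16605 entries tested at gene level 66.5% were called. Among the 226 genes whose first bin gained usage 96 rose, 91 fell and 39 had no call, and among the 245 whose first bin lost usage 136 rose, 61 fell and 48 had no call. Over all members tested, 2334 genes rose, 2307 fell and 1703 had no call.

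Most called first bins stood apart from the gene body, which the definition of usage change favours. The body was summarised as the median usage change of the gene's other tested bins of at least 60 bases. Usage change is already taken against the gene, so the body tends to lie near 0. By themselves 330 of the called bins changed by at least 1. In 317 of the 471 the first bin stood at least 1 log2 unit away from it, 143 higher and 174 lower, and in 32 both lay within 0.5 of each other. With the last bin of every gene left out, 401 of the 471 calls remained in the same direction, and with only bins up to the midpoint of the exonic length, 319.

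**Figure D2:**
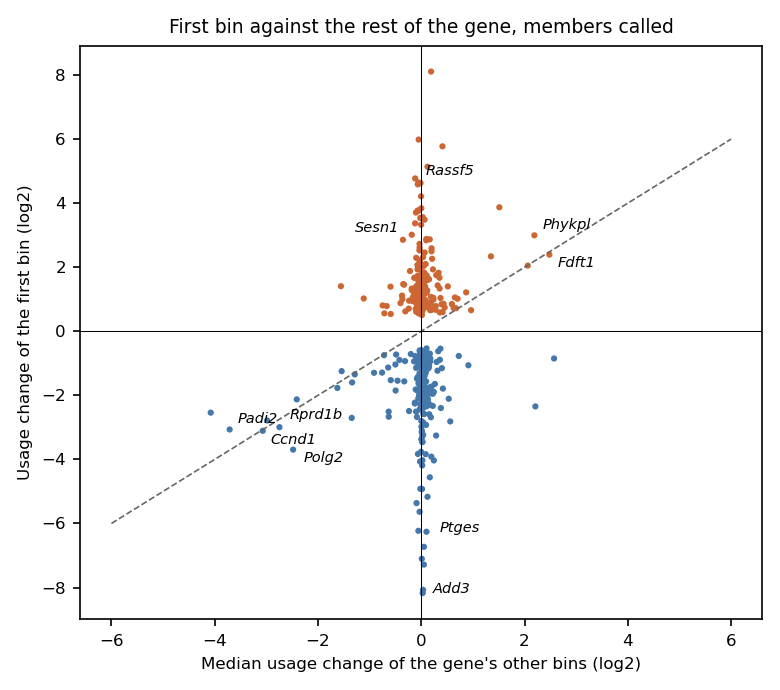
Usage change of the first bin (vertical axis, log2) against the median usage change of the other bins of its gene (horizontal axis, log2) for the called members, higher in orange and lower in blue. Most points, such as Rassf5 and Ptges, stand near a body change of 0, which the definition of usage change favours. Ccnd1, Rprd1b and Fdft1 lie near the dashed line where both are equal, and Padi2, Phykpl and Polg2 (apart by -1.21) have a body that moved in the same direction.

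The first bins with the largest falls in usage were at or near 0% of their gene's counts after EV treatment. Add3, which encodes an adducin of the membrane skeleton, has its first bin at chr19:53140445-53140714 (GRCm38, plus strand), an untranslated first exon in which 4 annotated transcripts start. The bin took 1.16%, 1.31% and 1.23% of Add3 counts in control libraries A, B and C and 0% in all 3 EV-treated libraries. Against a floor of 3 counts per library this is at least 10.6-fold lower, while the gene as a whole had no call (log2 fold change -0.10, adjusted p = 0.45). The downstream first exon, whose promoter is shown above, held 4.18% in control and 5.76% with EVs, a usage change of 0.46 that did not pass the test (adjusted p = 0.354).

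The first bins of Sh2d3c, an adaptor protein with an SH2 domain, and of Ntpcr, a nucleoside triphosphatase, were also at 0 in all EV-treated libraries. Sh2d3c (chr2:32721055-32721195) had 0.747%, 1.12% and 1.53% in control libraries, at least 5.74-fold more. Ntpcr (chr8:125729963-125730027) had 1.76%, 0.853% and 0.841%, at least 4.96-fold more. Both genes fell as a whole, by 1.82 and 1.97 on the log2 scale, so their EV-treated libraries also held fewer counts. The fitted usage changes of these 3 bins depend on the prior count and are not given as folds.

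Ptges, the inducible synthase of prostaglandin E2, rose from 5.02 to 1290 CPM as a gene (log2 fold change 8.01, adjusted p = 8.8e-09) while the share of its outermost exon fell. That exon (chr2:30929762-30929863, minus strand, untranslated) took 5.05%, 3.80% and 5.58% of the counts in control libraries and 0.066%, 0.0594% and 0.063% in EV-treated libraries. The bin held 44, 22 and 41 counts in control and 107, 94 and 95 with EVs. The groups did not overlap, which the naming rule required, and the usage change was -6.26 ± 0.65 (SE, adjusted p = 4.21e-19), beside 0.10 for the rest of the gene. Of 13 tested first bins of the cytokine and inflammatory enzyme list it was the 1 called, a share near the 7.42% over all members tested.

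In a pair of oxysterol-binding protein relatives, which move lipids between membranes, the share of the upstream first exon fell while the gene rose. Osbpl3 rose by 2.17 as a gene, and its first bin (chr6:50455825-50456161, minus strand) went from 3.95%, 3.88% and 3.71% to 0.0647%, 0.123% and 0.130% (usage change -5.17 ± 0.40, adjusted p = 3.86e-34). The bin's counts went from 160, 116 and 214 to 10, 16 and 24. Osbp2 rose from 1.56 to 27 CPM, and its first bin (chr11:3863233-3863903, minus strand, the first exon of the principal transcript and partly coding) went from 13.7%, 9.02% and 14.7% to 0.693%, 0.779% and 0.690% (usage change -4.03 ± 0.57, adjusted p = 2.69e-10). The bin's counts were 32, 23 and 25 in control and 22, 23 and 26 with EVs, which overlap. In Osbp2 the second bin fell with it, from 5.19% to 0.405% (usage change -3.60). A first exon 90114 bases downstream was at 0 in the 3 control libraries and at 2.08%, 1.76% and 1.70% with EVs. That is at least 1.31-fold higher against the floor of 3 counts, and its adjusted p of 0.00731 became 0.0776 without control library A and 0.0518 without control library B.

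The shares of further first bins fell while the body of the gene did not move with them. The first bin of Mbnl1, a splicing regulator, went from 2.13% ± 0.213 to 0.192% ± 0.0439 (SD, n = 3), a usage change of -3.46 in a gene that itself fell by 3.76, with 5, 5 and 4 counts left in the EV-treated libraries. That of Rapgef2, an activator of Rap GTPases, went from 1.07% ± 0.366 to 0.104% ± 0.0338 (SD, n = 3), a usage change of -3.29 (adjusted p = 1.20e-12) in a gene that rose by 3.92. Nfkb2, which encodes the NF-kB precursor p100, had almost no spread: its first bin (chr19:46304737-46304820, untranslated) took 2.84%, 2.88% and 2.87% in control and 0.579%, 0.648% and 0.580% with EVs. Its usage change was -2.25 ± 0.17 (SE, adjusted p = 2.07e-35), and the gene rose by 3.26. The next first exon downstream, at chr19:46305695-46305929, held 0.611% and 0.818% and had no call (adjusted p = 0.283). The RefSeq window before the upstream Nfkb2 start holds 2 matches to the NF-kB consensus on the plus strand, GGGAATTCCC and GGGGCTTTCC, and overlaps annotated exons, so the window is not shown. The window directly before the next first exon holds no NF-kB match but an AP-1 site, TGAATCA. The window before a further RefSeq start, directly after the next first exon, holds 1 NF-kB match, GGGACTTTCC.

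**Figure D3:**
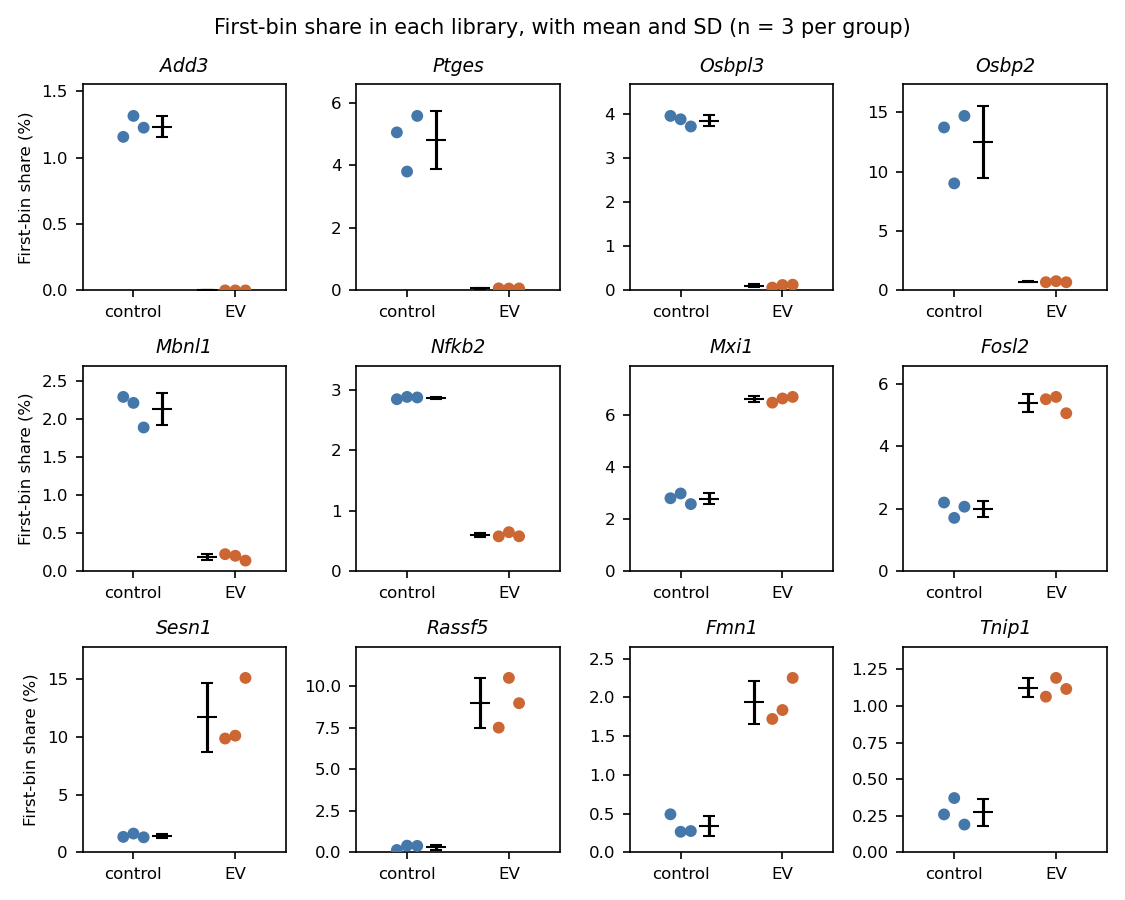
Share of the gene's counts in the first bin (vertical axes, percent, starting at 0) in each of the 3 control (blue) and 3 EV-treated (orange) libraries for 12 called members, with the mean and SD beside the points. The groups do not overlap in any of the 12, but the rule that named these genes asked for this. Mxi1 was instead singled out after its values were seen. Add3 is at 0 in every EV-treated library and Rassf5 goes from 0.315% to 9.0%.

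Rassf5 and Sesn1 were among the largest gains. Rassf5, a Ras and Rap effector known for a long form and a short form of lymphoid cells, has its first bin at chr1:131244689-131245258 (minus strand, partly coding, the first exon of the principal transcript). The bin took 0.146%, 0.406% and 0.393% in control and 7.51%, 10.5% and 8.99% with EVs (usage change 4.77 ± 0.70, adjusted p = 1.96e-09). Bin 3, an internal exon downstream of it, rose with it from 0.209% to 4.74% (usage change 4.42). The first exon of the short transcript, 45123 bases downstream, fell from 9.66%, 7.80% and 8.50% to 2.07%, 2.90% and 0% (usage change -2.40 ± 0.47). That downstream exon held under 10 counts in every EV-treated library. It passed the filter only through control and had to differ in counts, so its values are a description. The gene fell from 21.0 to 2.75 CPM, so the upstream bin itself held only 4, 10 and 17 counts in control and 29, 29 and 31 with EVs.

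Sesn1, a stress-induced regulator of growth signalling, also gained. Its first bin (chr10:41809935-41811300, plus strand, partly coding) took 1.34%, 1.63% and 1.31% in control and 9.84%, 10.1% and 15.1% with EVs (usage change 3.02 ± 0.33, adjusted p = 1.43e-17). The gene fell from 48.2 to 8.25 CPM, and the bin's counts were 78, 94 and 135 in control and 109, 95 and 145 with EVs, which overlap. The downstream first exon went from 3.44% to 2.29% and had no call (adjusted p = 0.316).

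Fam19a2, a secreted protein of the nervous system, had 0, 0 and 1 counts in its first bin in control and 38, 42 and 59 with EVs, a share of 2.99% ± 0.731 (SD, n = 3). Its fitted usage change depends on the prior count and is not given. Fmn1, an actin-nucleating formin, went from 0.345% ± 0.127 to 1.94% ± 0.278 (SD, n = 3, usage change 2.50). Fosl2, an AP-1 subunit, went from 1.99% ± 0.254 to 5.38% ± 0.283 (SD, n = 3, usage change 1.40) while the gene rose by 3.57. Tnip1, a ubiquitin-binding brake on NF-kB, went from 0.274% ± 0.0913 to 1.12% ± 0.0644 (SD, n = 3, usage change 2.03), and Rps6ka1, a ribosomal S6 kinase, from 0.280% ± 0.0516 to 1.35% ± 0.525 (SD, n = 3, usage change 2.29). Gains were also called in Mrpl52 (2.02), Plgrkt (1.83), Atxn7l2 (2.32) and Atpaf2 (1.73), by usage change. The call of Atxn7l2 was lost without control library A (adjusted p = 0.105) and that of Atpaf2 without control library A (0.174) or C (0.0563).

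In 6 of the genes named by rule, grouped after their values were seen, the body moved by over 2 log2 units in the same direction as the first bin. The first bin stood within 0.5 of the body in Ccnd1, Rprd1b and Fdft1, 0.65 above it in Padi2, 0.81 above it in Phykpl and apart from it by -1.21 in Polg2. Ccnd1, which encodes cyclin D1, had 10.5%, 9.85% and 9.83% in its first bin (chr7:144939496-144939869, minus strand) in control and 0.325%, 2.42% and 0.692% with EVs (usage change -3.11). Its other internal bins fell alike (body -3.07), while the last bin went from 54.3% to 94.5%. Without EV library B the usage change of the first bin of Ccnd1 was -4.22. Padi2, a peptidylarginine deiminase, showed the same order, with the first bin at 1.74% in control and 0.210% with EVs (usage change -3.07, body -3.71) and the last bin at 48.4% and 75.9%. The call of the first bin of Padi2 was kept with the last bin left out, at -1.95.

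Rprd1b, a protein that binds RNA polymerase II, had 1.53% and 0.187% in the first bin (usage change -2.99) and 12.5% and 87.8% in the last. Polg2, the accessory subunit of the mitochondrial DNA polymerase, had 7.61% and 0.601% in the first bin (usage change -3.69) and 35.2% and 83.5% in the last. Fdft1, squalene synthase, and Phykpl, a phospho-lyase, went the other way, with first-bin usage changes of 2.39 and 3.0 and body changes of 2.48 and 2.19. When the last bin was left out, the first bins of Rprd1b, Fdft1 and Ccnd1 lost their calls (usage changes of -0.14, -0.06 and 0.05), and with bins up to the gene's midpoint Polg2 (-0.69) and Phykpl (0.05) lost theirs too. In Rprd1b and Fdft1 the call was also lost with limma-voom (adjusted p of 0.0582 and 0.613).

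**Figure D4:**
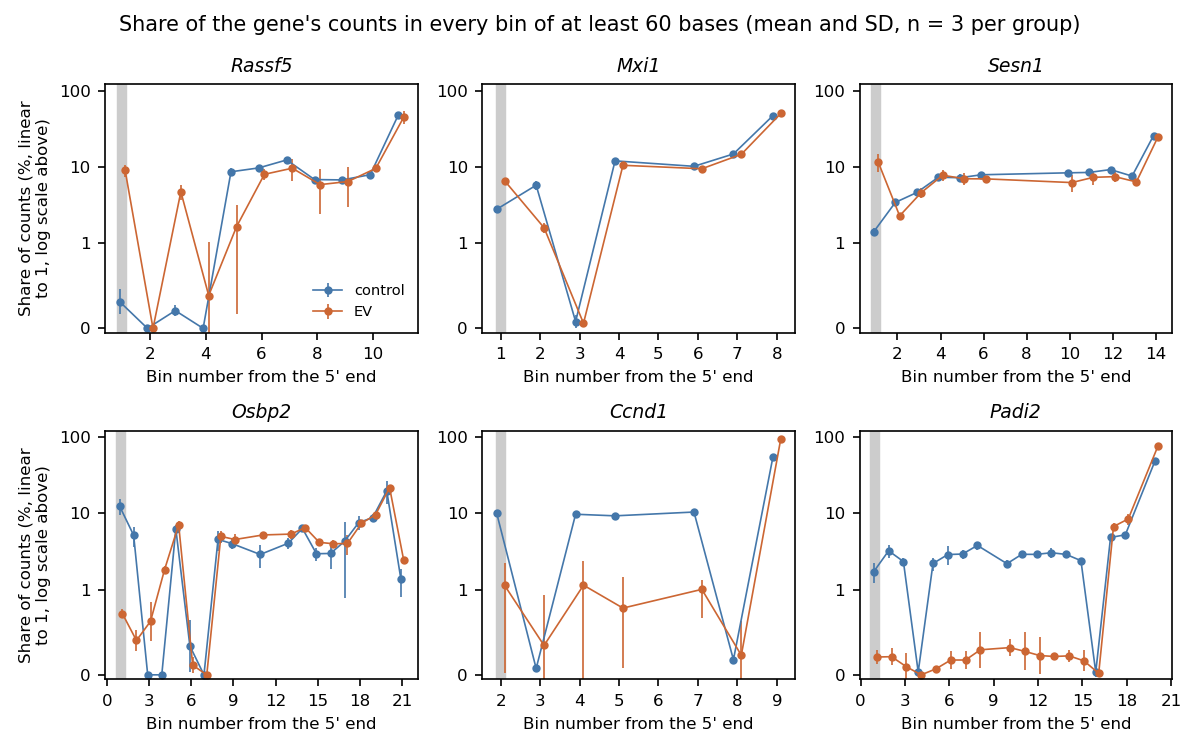
Share of the gene's counts (vertical axes, percent, linear up to 1 and log scale above) in each bin of at least 60 bases, numbered from the 5′ end, as mean and SD of 3 control (blue) and 3 EV-treated (orange) libraries; the grey band marks the first bin. In Rassf5, Mxi1, Sesn1 and Osbp2 the groups part at the first exons and run together further down, while in Ccnd1 and Padi2 they part over the whole 5′ body.

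Another annotated first exon could be tested in 1695 members, and in 62 of these both it and the first bin were called. A further first exon called in the same direction was found in 38 genes and 1 called in the opposite direction in 28, with some genes in both counts. In 21 of the 28 the first bin lies under no other gene entry, 7 with the first bin higher and 14 with it lower. Overlap of the other first exon with another entry was not checked. These 21 genes were singled out after their values were seen. The downstream first exon lies between 298 bases (Arid3a) and 202908 bases (Tmcc3) away, with a median of 6651.

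In Mxi1, an antagonist of MYC, the share of the upstream first exon rose and that of the downstream one fell. The upstream bin (chr19:53310506-53310973, partly coding) took 2.81%, 2.99% and 2.59% in control and 6.48%, 6.64% and 6.70% with EVs (usage change 1.25 ± 0.27, adjusted p = 0.000196). The downstream first exon (chr19:53329413-53329720) took 6.62%, 5.75% and 4.95% in control and 1.36%, 1.61% and 1.85% with EVs (usage change -1.87 ± 0.29, adjusted p = 1.40e-08). The order of the 2 shares was opposite in the 2 groups, in every library, while the gene rose from 27 to 527 CPM.

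Pias3, a SUMO ligase that inhibits STAT3, went the other way. Its upstream bin (chr3:96696442-96696531, untranslated) took 1.67%, 1.17% and 1.09% in control and 0.433%, 0% and 0.415% with EVs (usage change -2.10 ± 0.40, adjusted p = 1.63e-05). The downstream first exon, 691 bases on, took 0.667%, 0.806% and 0.697% in control and 2.42%, 2.65% and 2.26% with EVs (usage change 1.75 ± 0.31). Neither pair of groups overlapped, and the gene fell by 0.51. The upstream call was lost with limma on the log2 ratio (adjusted p = 0.10).

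Impdh1, the rate-limiting enzyme of guanine nucleotide synthesis, gave the same order. The upstream bin (chr6:29216072-29216277, minus strand) went from 1.86%, 2.04% and 1.70% to 0.514%, 0.457% and 0.632% (usage change -1.81 ± 0.27, adjusted p = 1.96e-09). The downstream one went from 2.15%, 1.73% and 1.64% to 3.01%, 3.14% and 2.81% (usage change 0.70 ± 0.20, adjusted p = 0.016). The call of the downstream exon was lost without control library B (adjusted p = 0.0744) and without EV library A (0.0997), B (0.126) or C (0.0502).

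Genes of metabolism and of the clock were among the others. In Ugp2, which makes UDP-glucose for glycogen, the upstream bin fell from 4.40% to 1.25% and the downstream first exon rose from 3.02% to 5.68%. In Slc16a3, the lactate exporter MCT4, a gene that rose by 4.96, the upstream bin fell from 0.953% to 0.0853% and the downstream one rose from 1.96% to 3.18%. In Per1, a repressor of the circadian clock, the upstream bin rose from 0.113% to 0.729% and the downstream one fell from 1.55% to 0.455%. In Tmcc3 the upstream bin rose from 0.0818% to 0.784% and the downstream one fell from 2.03% to 0.490%.

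In Nr4a2, an immediate early nuclear receptor, the share of the upstream bin fell from 3.70% to 0.794% and that of the downstream one rose from 0.452% to 3.77%. The upstream bin held only 4, 6 and 13 counts in control and 18, 10 and 30 with EVs, in a gene that rose by 3.85. The downstream bin of Nr4a2 held under 10 counts in every control library. It passed the filter only through the EV group, so its values are a description. The upstream call was lost without control library B (adjusted p = 0.0583). In Casp8, an apoptotic protease whose gene had no call (log2 fold change -0.02), the upstream bin fell from 1.93% to 0.901% and the downstream one rose from 0.520% to 1.13%. The downstream call was lost without control library B (0.0707) or C (0.0822). In Lzts2 the upstream bin fell from 2.94% to 0.438% and the downstream one rose from 1.57% to 5.54%. In Fam49b, Arid3a, Elmsan1, Osbpl9, Ntpcr, Sh2d3c and Osbp2 the share of the upstream exon also fell and that of the downstream one rose. Cdip1, Cic, Zfp384 and Rassf5 showed the reverse. These are shares of a gene's counts, and in Elmsan1 and Osbp2 the counts of the upstream bin overlapped between the groups. Calls of Cdip1, Cic, Zfp384, Elmsan1 and Osbpl9 were lost in at least 1 fit that left out a library, and that of Fam49b with limma on the log2 ratio (adjusted p = 0.0559).

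**Figure D5:**
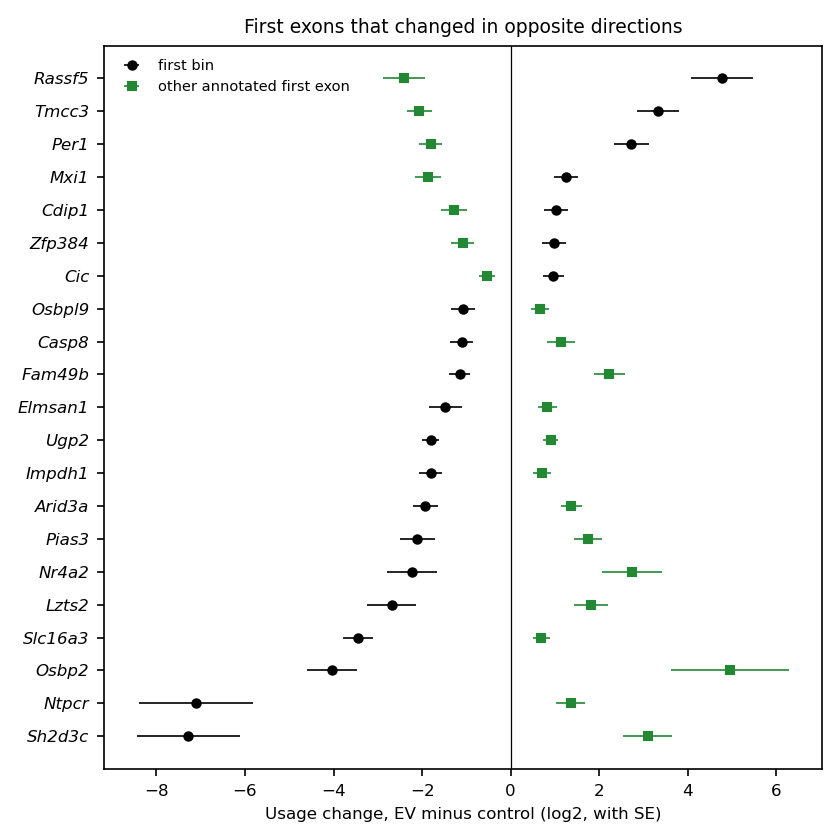
Usage change (horizontal axis, log2, EV minus control, with SE) of the first bin (black circles) and of another annotated first exon of the same gene (green squares) for the 21 genes in which both were called in opposite directions. The 7 genes at the top have the first bin higher and the 14 below have it lower. The Osbp2 square stands against control libraries at 0, and so do the Ntpcr and Sh2d3c circles against EV-treated libraries. The Rassf5 square passed the filter only through control and the Nr4a2 square only through the EV group.

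First bins of the immune and metabolic lists were called in both directions, and their counts stand beside the 7.42% called over all members tested. Of 40 tested genes with known alternative promoters 3 were higher (Cd44, Rsu1, Fosl2) and 6 lower (Igf1, Nfkb2, Il1rn, Mbnl1, Il15, Mitf), with a median usage change of 0.05 beside -0.03 for all members tested. Il1rn, the interleukin 1 receptor antagonist, rose by 4.38 as a gene and its first bin (chr2:24336856-24336992) went from 1.31%, 2.23% and 0.955% to 0.393%, 0.438% and 0.415% (usage change -1.90, adjusted p = 1.01e-06). Il15, a cytokine for natural killer and T cells, went from 8.10%, 5.77% and 7.49% to 1.42%, 0.813% and 1.40% (usage change -2.59, adjusted p = 6.47e-05). Both were singled out after their values were seen. Mitf, a regulator of lysosomal genes, went from 4.32% to 2.52% (usage change -0.79, adjusted p = 0.0242), a call lost in 5 of the 6 fits without a library.

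Of 22 NF-kB factors and feedback genes 2 were higher (Tnip1, Tank) and 3 lower (Irak3, Nfkb2, Birc3), with a median of -0.10. Tank, an adaptor of NF-kB and interferon signalling, went from 1.91% to 3.34% (usage change 0.82), a call lost without control library C (adjusted p = 0.161). Of 28 interferon-stimulated genes 4 were lower (Adar, Isg20, Ddx58, Ifit2), with a median of -0.15. Isg20, an exonuclease for RNA, went from 7.09% to 2.47% (usage change -1.56, adjusted p = 0.0107), and the call was lost without control library A (0.0845), B (0.0656) or C (0.177). Of 10 chemokine genes 2 were lower (Cxcl16, Pf4), and the call of Pf4 (8.87% and 5.37%, adjusted p = 0.0394) was lost in 5 of the 6 fits without a library.

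Of 17 glycolysis and hypoxia genes 2 were higher (Hif1a, Hk3) and 5 lower (P4ha1, Tpi1, Slc16a3, Slc2a1, Pgk1), with a median of -0.19. In Slc2a1, the glucose transporter GLUT1, the first bin went from 0.176% to 0.00972% of a gene that rose by 3.86, and in Pgk1, a glycolytic kinase, from 0.178% to 0.0488% of a gene that rose by 3.31. Of 29 lysosome and lipid genes 4 were higher (Tfe3, Ctsa, Plin2, Grn) and 1 lower (Mitf). Of 12 homeostatic microglia genes 1 was higher, Csf1r, the receptor for colony stimulating factor 1, at 0.00275% and 0.0308%. At that control share the bin held few counts in control, so its values are a description. Of 26 ribosomal protein genes 1 was lower, Rps18, whose bin also lies under another gene entry.

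A RefSeq start lay within 100 bases of the first bin in 5059 members. In the windows before these starts the median number of CG pairs was 20 for the higher, 15 for the lower and 18 for the uncalled members tested, and the median GC content was 64.0%, 60.4% and 60.8%. The hypoxia response core was in 28.3% of the 138 windows of higher, 28% of the 150 of lower and 23.4% of the 4063 of uncalled members. The NF-kB site was in 4.35%, 8.67% and 6.25%, the PU.1 core in 25.4%, 18.7% and 21.8%, the AP-1 site in 0.725%, 4.67% and 3.89%, and the TATA box in 2.90%, 6.67% and 5.59%. These are matches of letters, given without a test.

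At the edges of the rule, Lyrm1 entered with 5000 counts and Mllt11 stayed outside with 4998. There were 197 members with exactly 5 bins and 190 single-gene entries with 4 bins and enough counts. The first bin had exactly 60 bases in 61 members, and 631 members skipped a bin of 50 to 59 bases. In 880 members, 107 of them called, another gene entry lies over the first bin, and the counts of such bins are uncertain.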

How the data were processed

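RNA of 3 control and 3 EV-treated microglia samples was selected for polyadenylated transcripts and sequenced in paired reads of 150 bases. Trimmomatic 0.36, STAR, Subread and DESeq2 are named in the submitters' processing notes, as is the build, GRCm38. Not given in the sources used here are settings, annotation release and strand handling. The deposited values are raw counts per exon bin, per the file headers, and the series table held the same counts as the 6 single files. A read spanning several bins may be counted in each, so bins of a gene are not fully independent, and short first bins share reads with their neighbours.

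Bins passing filterByExpr in entries with at least 2 such bins were fitted with edgeR 4.0.16 (R 4.3.3; glmQLFit, TMM scaling, no covariate) and tested with diffSpliceDGE at bin level, 2-sided, with Benjamini-Hochberg adjustment and a threshold of 0.05. SEs come from the usage change and its p-value. Gene level used counts summed over bins (glmQLFTest). CPM uses TMM library sizes. Annotation is GENCODE vM21. On simulated counts with 50 changed bins per size, 94% were recovered at a log2 change of -2, 60% at -1, 72% at 1 and 96% at 2, and 0 of 6034 unchanged first bins were called. The changed bins were drawn from first bins above a count minimum. Bins were simulated independently and no gene changed as a whole, unlike these data, so the rates may not carry over to them.

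Genes were named by rule: called, shares not overlapping, a mean share of at least 1% and 20 counts in the higher group, at least 100 gene counts in every library and no other entry over the bin, then the 12 highest and 12 lowest, plus up to 2 each way per gene list. This gave 30 of 185 eligible genes (82 others lay under another entry and 9 had no name). The members and lists were chosen with earlier results of these data known. Alternatives were RLE scaling, other filters, limma-voom (limma 3.58.1), DESeq2 1.42.0, a replicate block, each library left out, other bin lengths and gene minimums, fewer comparison bins and stricter thresholds; limma on the log2 ratio (pseudocount 0.5) was added after seeing the data. Deviations of same-lettered libraries correlated at -0.086, 0.037 and 0.025, so letters were not treated as pairs.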

Additional observations from a re-analysis of the deposited data

How the results depend on the processing

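None of the alternatives that tested the same first bins turned a called first bin into a call of the opposite direction. Against 471 calls, DESeq2 on first bins against the other counts of the gene gave 808 (342 higher, 466 lower) and limma on the log2 ratio, chosen after seeing the data, 902 (375 and 527), both adjusted over the 7872 members alone. The count of first bins with higher usage in EV (226) became 141 with bins up to the gene's midpoint, 146 at an adjusted p under 0.01 and 146 with a usage change of at least 1, and that of first bins with lower usage in EV (245) became 163 with at least 50 counts in 3 libraries. Leaving out each library in turn gave 333 to 417 calls, 145 to 230 higher and 170 to 238 lower. The lowest count of higher calls, 145, came without control library B. With a replicate block 538 were called (244 higher, 294 lower), 440 of them shared, and among the values followed it ended only the call of the other first exon of Osbp2 (adjusted p = 0.0601).

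Over 72 bins followed through 1021 recomputed values, 950 kept direction and side of the threshold, 67 lost the call and 4 reversed. The first bin of Fdft1 reversed to -0.0570 with the last bin left out and to -0.0567 with bins up to the midpoint, and the first bin of Ccnd1 to 0.050 and 0.0504; the construction of both alternatives removes the 3′ bin that these shares are read against. The filter on low counts left out 1528 members; without it 7557 were tested and 480 called, and 315 were at 0 in every library.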
